A study of Mus musculus with 6 samples.

Results

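The Notch receptor gene Notch3 and the Notch ligand gene Dll4 were examined in a DNA methylation study of mouse bone marrow cells. The members are the windows of the authors' 3 comparison tables whose nearest start site is that of Notch3 or Dll4, each window taken once per chromosome and start. There were 6 such windows of 2135 in all, 2 for Notch3 and 4 for Dll4. They were chosen by the listed methylation differences and q-values themselves, so their differences are given as a description and not tested.

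Methylation was read by reduced representation bisulfite sequencing (RRBS), which sequences short fragments cut at MspI sites (CCGG) and therefore reads CpGs close to such sites. The cells were C57BL6 bone marrow cells immortalised with HoxA9, a transcription factor that keeps myeloid progenitors dividing, and grown in irradiated recipient mice. The IDH1mut group (2 libraries) carried pSF91-IDH1mut-IRES-GFP, with the R132C mutation named by the comparison table. The R-2HG group (2 libraries) carried an empty vector in mice given R-2HG, the metabolite made by the mutant enzyme, at 1 mg per day for 4 weeks. The IDH1wt group (2 libraries) carried pSF91-IDH1wt-IRES-EGFP. All cells carried HoxA9 and a vector and were sorted as GFP-positive from marrow after 4 weeks. An untreated empty vector group was not analysed here, so R-2HG and IDH1wt differ in the vector as well as in treatment. Whether a group's libraries come from different mice is not given by the labels.

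Each value is the authors' difference in methylation between 2 groups in percentage points over a window of 500 bp, and a gain means higher methylation in the group named first. The tables list windows past 25 points and the authors' q threshold, with no group mean, replicate value or read depth, so no error stands beside a difference. They do not state a sign. With the table of IDH1wt and R-2HG reversed, the 3 windows shared by all tables left a residual of 0, and the 705 windows shared by exactly 2 tables all had a remaining difference under 25 points. Values for R-2HG minus IDH1wt are therefore printed with the sign opposite to the deposited one. The order in which all 3 tables run together is not fixed by the data. Under the opposite reading Dll4 would be lower in R-2HG than in IDH1wt, the Notch3 start site lower in IDH1mut than in IDH1wt, and every other direction below would turn as well.

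Notch receptors are cut when a ligand on a neighbouring cell binds them, and the released intracellular part enters the nucleus and joins the DNA-binding protein Rbpj to switch on genes such as Hes1. Notch3 is best known from the smooth muscle cells of arteries and from T cell leukaemia. Dll4 is a ligand of endothelial cells, and in the thymus it drives progenitors into the T cell lineage. RRBS does not measure expression, so whether either gene was active in these cells is unknown, and the cell type could not be checked by marker levels.

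The sequences before the start sites are shown because the Notch3 window that was listed in 2 comparisons begins 48 bp after its start site, while no Dll4 start site window was listed. Both are the 250 bp before the start site from RefSeq on build GRCm38.p6, read 5′ to 3′ along the gene. By distance from the start site, neither sequence overlaps a listed window. The counts made on them therefore do not describe the DNA in which the differences were listed. Capitals mark the MspI sites (CCGG) at which RRBS fragments begin. Notch3 is at chr17:32166891-32167140, minus strand, and Dll4 at chr2:119325534-119325783, plus strand.
Notch3: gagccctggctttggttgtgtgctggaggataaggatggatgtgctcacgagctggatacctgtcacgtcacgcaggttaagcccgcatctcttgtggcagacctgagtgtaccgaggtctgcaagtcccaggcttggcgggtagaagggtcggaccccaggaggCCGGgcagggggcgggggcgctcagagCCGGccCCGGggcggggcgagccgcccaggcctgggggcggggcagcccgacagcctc
Dll4: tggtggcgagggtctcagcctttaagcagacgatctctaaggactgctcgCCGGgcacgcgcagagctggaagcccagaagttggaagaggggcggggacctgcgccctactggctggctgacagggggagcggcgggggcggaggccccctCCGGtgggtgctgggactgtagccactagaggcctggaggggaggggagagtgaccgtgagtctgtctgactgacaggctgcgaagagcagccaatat

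The Notch3 sequence holds 17 CpGs and 3 MspI sites, the nearest 52 bp before the start site, and 2 more MspI sites lie in the 50 bp after it. The Dll4 sequence holds 14 CpGs and 2 MspI sites, the nearest 98 bp before the start site, with 0 in the 50 bp after it. Both are richer in CpGs than most of the 32536 promoter sequences of the same length, whose median is 6 CpGs and of which 47.3% hold an MspI site. The letters TGGGAA, the core of the Rbpj motif, were in neither sequence on either strand, against 21.6% of all promoter sequences. The tables do not say which windows over these sequences were tested.

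At the Notch3 start site, methylation was higher in IDH1mut than in IDH1wt and lower in R-2HG than in IDH1mut. The window runs from 48 to 547 bp downstream of the start site of transcript NM_008716 (mm9 chromosome 17, 32303251 to 32303750, the gene on the minus strand). For IDH1mut minus IDH1wt, its difference in the authors' deposited table was 27.2 percentage points, with a p of 2.66e-09 and a q of 2.16e-08. For R-2HG minus IDH1mut, the difference in the authors' deposited table was -28.1 points, with a p of 7.11e-12 and a q of 8.38e-11. The 3 groups' differences add up, and subtraction put R-2HG at -0.91 points relative to IDH1wt. By these values the start site window was near its IDH1wt level in R-2HG and above it in IDH1mut, and the nearness of R-2HG to IDH1wt holds under either reading of the signs. Both listed values rest on the same 2 IDH1mut libraries, so they are not separate pieces of evidence.

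The other Notch3 window lay 22798 to 23297 bp downstream of the start site (mm9 chromosome 17, 32280501 to 32281000). RefSeq on GRCm38.p6 gives Notch3 a length of 46077 bp, which is more than that distance. Exon or intron was not determined, because no mm9 annotation was used here. In the authors' deposited table this window was listed for R-2HG minus IDH1mut alone, with a difference of 26.5 points and a p and q of 0. Its direction is opposite to that of the start site window in the same comparison. If it was tested against IDH1wt and left out for being under 25 points, IDH1mut lay between -25 and -1.45 points and R-2HG between 1.45 and 25 points relative to IDH1wt. On that condition the groups stood on either side of IDH1wt, with R-2HG the higher. The 25 point limit puts the groups on either side at any window listed for R-2HG minus IDH1mut alone. This is therefore not read as a trait of Notch3.

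Upstream of Dll4, methylation was higher in R-2HG than in IDH1wt in 4 overlapping windows that cover 1250 bp (mm9 chromosome 2, 119147501 to 119148750). They reach from -4019 to -2770 bp relative to the start site of NM_019454, so none touches the start site. The differences of all 4 are given after the reversal of sign. For R-2HG minus IDH1wt, the authors' deposited table gave 29.1 points, after the reversal of sign, in the window farthest from Dll4, with its near edge at -3520 bp. The next one towards Dll4, whose near edge is at -3270 bp, had 29.9 points in that deposited table of the authors. The third Dll4 window, with its near edge at -3020 bp, was the highest, with 36.0 points in the authors' deposited table. It shares no base with the farthest window, and the other three lay within a narrow range below it. The window closest to Dll4, with its near edge at -2770 bp, had 28.8 points according to the authors' deposited table. Both p and q were 0 as deposited in all 4 Dll4 windows, and 68.7% of the windows listed for R-2HG minus IDH1wt had a p of 0. Their differences spanned 7.22 points with a median of 29.5, and no 2 were the same although neighbours share 250 bp. The windows form 1 block and are not independent of each other. RefSeq on GRCm38.p6 has a long noncoding RNA gene, Gm14207, that overlaps Dll4, but the authors' table names Dll4 as the gene of the nearest start site. Notch3 is likewise overlapped by long noncoding RNA genes, Gm38585 and Gm41568.

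**Figure D1:**
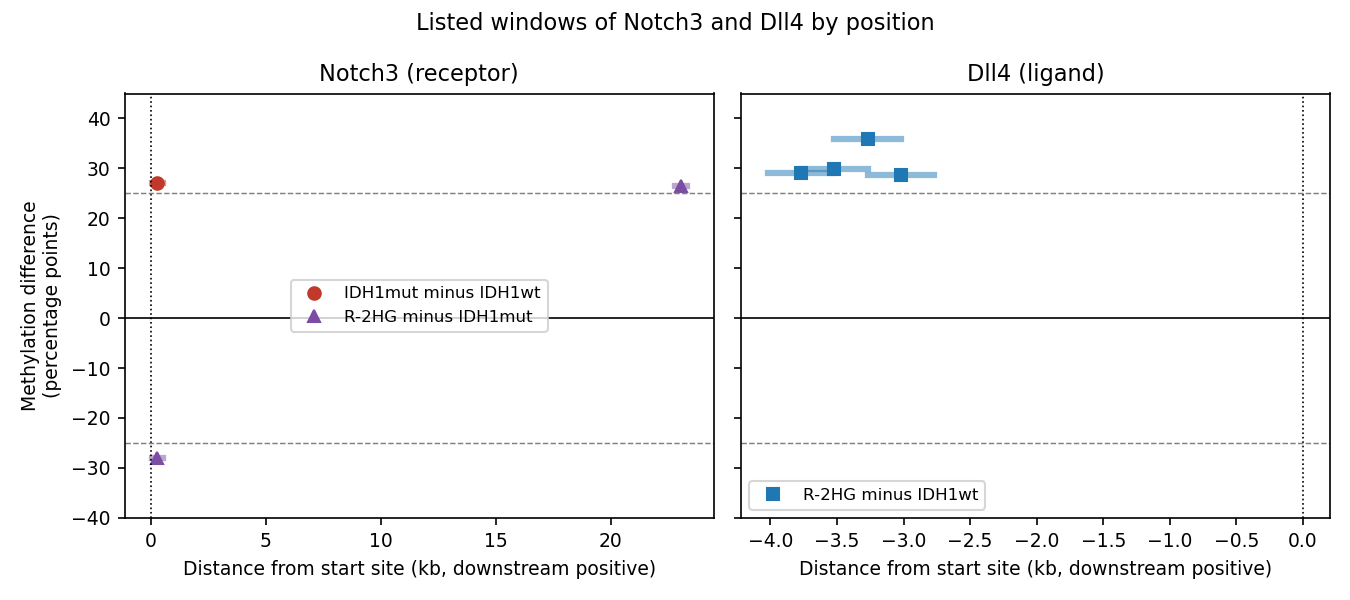
Methylation difference in percentage points (y axis) of the listed windows of Notch3 (left) and Dll4 (right) against distance from the start site in kb (x axis, downstream positive). Horizontal bars span each 500 bp window, symbols and colours give the comparison, and dashed lines mark 25 points; the Notch3 start site window has values of 27.2 and -28.1 and the 4 Dll4 windows lie between 28.8 and 36.0.

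None of the Dll4 windows was listed for IDH1mut minus IDH1wt or for R-2HG minus IDH1mut. An unlisted window may have been under 25 points, may have missed the q threshold, or may not have been covered. If the Dll4 windows were tested in both comparisons and were under 25 points, IDH1mut lay above IDH1wt in all 4. The gap would then be at least 4.07, 4.86, 11.0 and 3.76 points, from the farthest window to the closest. By the same arithmetic R-2HG would be above IDH1mut by at least these amounts. On that condition IDH1mut stood between R-2HG and IDH1wt along the whole block. The 25 point limit gives this order to any window listed for R-2HG minus IDH1wt alone. It is therefore not read as a trait of Dll4. The tables do not give the IDH1mut level at Dll4 otherwise, and whether Dll4 responds differently in IDH1mut and R-2HG was not tested.

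**Figure D2:**
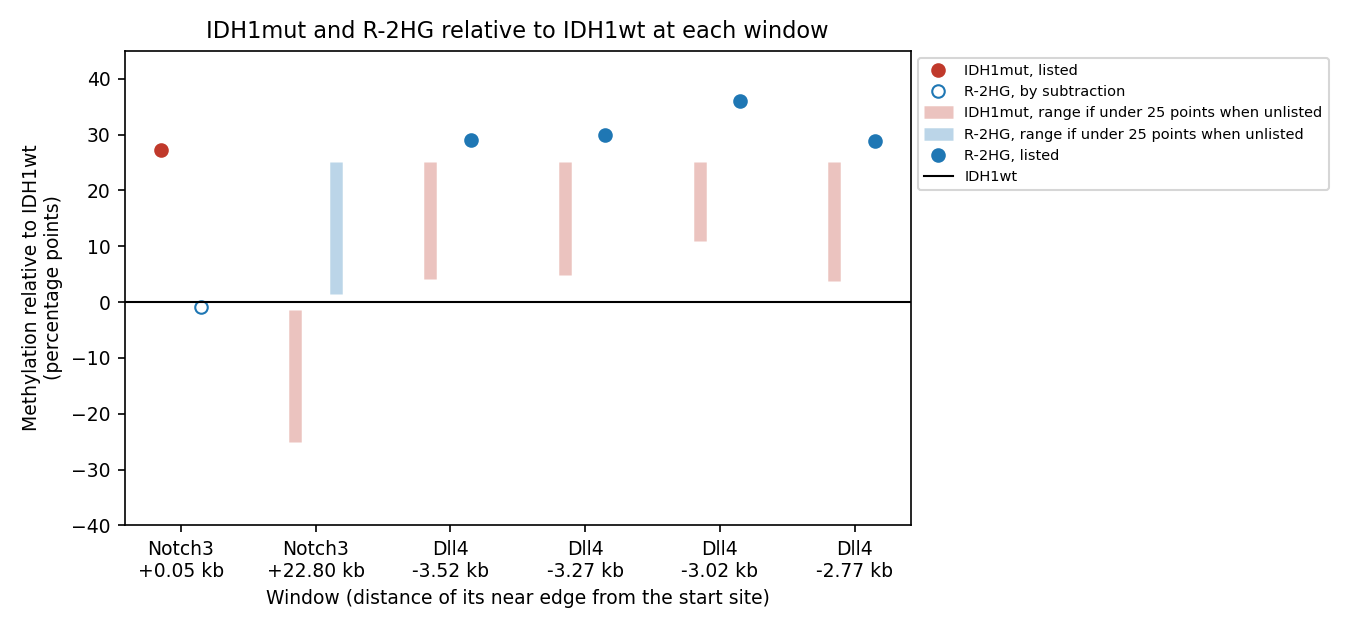
Methylation of IDH1mut (red) and R-2HG (blue) relative to IDH1wt (line at 0) in percentage points (y axis) at each of the 6 windows (x axis, labelled by the near edge in kb from the start site). Filled points are listed differences, the open point is a subtraction, and bars are ranges that hold if an unlisted window was tested and under 25 points; at the Notch3 start site IDH1mut is at 27.2 and R-2HG at -0.91, and at Dll4 R-2HG is at 28.8 to 36.0.

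Receptor and ligand were therefore listed in different comparisons. Notch3 was in both comparisons that involve IDH1mut and absent from R-2HG minus IDH1wt, while Dll4 was in that comparison alone. Of all 2135 listed windows 66.8% were in 1 table alone, so a listing in a single comparison was the usual state. A further 33.0% were in 2 tables, as the Notch3 start site window was. These are shares of windows, and no such share was worked out for genes. Notch3 had 1 window for IDH1mut minus IDH1wt, a gain, where 69.3% of all 1493 listed windows were gains and 30.7% losses. Dll4 had 4 windows for R-2HG minus IDH1wt, all gains, where 68.0% of the 750 listed windows were gains and 32.0% losses. For R-2HG minus IDH1mut, Notch3 had 1 gain and 1 loss, where 35.5% of the 603 listed windows were gains and 64.5% losses. These directions were thus those of most listed windows, apart from the downstream Notch3 gain, and nothing about the genes is read from them.

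In size, the members were not among the largest differences listed. The Notch3 start site gain in IDH1mut, 27.2 points, was below the median of 30.6 over the 1035 gains listed for IDH1mut minus IDH1wt, and it was larger than 25.4% of them. Its R-2HG minus IDH1mut value of -28.1 compares with a median of -29.2 over 389 losses. The downstream Notch3 gain of 26.5 points, the smallest member value, was larger than 20.6% of the 214 gains listed for R-2HG minus IDH1mut, whose median was 29.0. The Dll4 median of 29.5 points was next to the median of 29.4 over the 510 gains listed for R-2HG minus IDH1wt, and the highest Dll4 window was larger than 78.8% of them.

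The 2 loci also differed in how they were laid out. Neither Notch3 window had a listed neighbour overlapping it by 250 bp, which holds for 30.7% of the windows listed for IDH1mut minus IDH1wt and for 31.5% of those listed for R-2HG minus IDH1mut. Each Dll4 window overlapped at least 1 other listed window, and 31.7% of the windows for R-2HG minus IDH1wt had no such neighbour. The Notch3 start site window was a promoter window (-2000 to 500 bp around the start site), as were 18.1% of the windows for IDH1mut minus IDH1wt and 19.1% of those for R-2HG minus IDH1mut. All 4 Dll4 windows lay upstream of that range, where 13.3% of the windows for R-2HG minus IDH1wt were promoter windows. The authors' p was above 0 at the Notch3 start site, although 70.9% of the windows for IDH1mut minus IDH1wt and 81.9% of those for R-2HG minus IDH1mut had a p of 0. No window of another gene was listed within 100000 bp of either locus. The nearest was 509251 bp from Notch3, at Cyp4f15, and 421751 bp from Dll4, at Itpka. How many of all listed windows stand as far from those of another gene was not counted, so this is not read as a trait of the 2 loci.

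**Figure D3:**
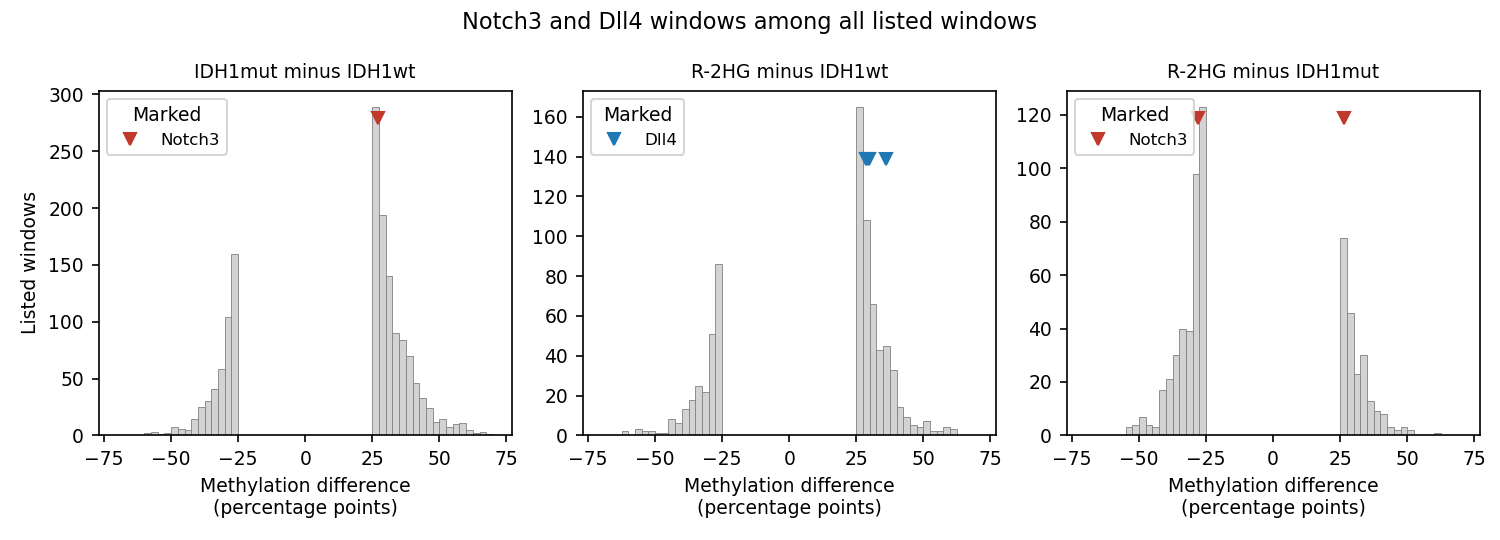
Number of listed windows (y axis) by methylation difference in percentage points (x axis) for the 3 comparisons, with Notch3 (red) and Dll4 (blue) windows marked by triangles at their x value only. The members sit in the body of the listed windows: Notch3 at 27.2, 26.5 and -28.1, and Dll4 at 28.8 to 36.0.

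Of 64 Notch pathway genes, 7 were the nearest gene of a listed window in at least 1 comparison. The share of all genes listed in at least 1 comparison was not worked out, so nothing is read from this count. The list holds 4 receptors, 7 ligands, 27 genes of processing and turnover, 13 nuclear factors and 13 targets. For IDH1mut minus IDH1wt 4 of the 64 were listed, 2 as gains and 2 as losses, against 3.14% of RefSeq protein-coding genes. For R-2HG minus IDH1wt Dll4 was the single listed gene, against 1.64% of RefSeq protein-coding genes. For R-2HG minus IDH1mut 5 were listed, 3 as gains, 1 as a loss and Notch3 as both, against 1.40% of RefSeq protein-coding genes. RefSeq genes are not the genes tested, and the number of windows tested near each gene is unknown, so the shares are not a measure of enrichment. The median over the pathway's windows was -26.3 points for IDH1mut minus IDH1wt, and 27.3 points for R-2HG minus IDH1mut, and Neurl1a and Furin supplied 7 of the 9 windows of the first and 4 of the 8 of the second.

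Notch1, Notch2 and Notch4 had no window in the tables analysed here, which left Notch3 as the 1 receptor of 4 and Dll4 as the 1 ligand of 7. Notch3 and Dll4 were chosen because they were listed, so nothing is read from these counts. The share of all genes listed in at least 1 comparison was not worked out. Among processing genes, Furin encodes the protease that cuts the Notch precursor. Methylation was lower in IDH1mut than in IDH1wt in 2 windows whose nearest start site is that of Furin. In the authors' deposited table their differences were -31.7 and -29.7 points. These 2 overlapping Furin windows have their near edges at -17185 and -17435 bp. In R-2HG minus IDH1mut they had 38.3 and 34.4 points in the authors' deposited table, and subtraction put R-2HG at 6.59 and 4.69 points relative to IDH1wt. These Furin windows thus ran the other way from the Notch3 start site window, with IDH1mut below IDH1wt. They lie far upstream of the Furin start site, so the positions compared are unlike.

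Neurl1a, which encodes a ubiquitin ligase related to the Drosophila regulator of Notch ligands, had 5 windows for IDH1mut minus IDH1wt, all losses, from -25.6 to -36.9 points in the authors' deposited table. These Neurl1a windows lay 31670 to 109920 bp downstream of its start. RefSeq on GRCm38.p6 gives Neurl1a a length of 80622 bp. The window at 31670 bp was nearer than that, and all the others were farther. For R-2HG minus IDH1mut 2 of the farther Neurl1a windows, at 85420 and 85670 bp, were listed, at 26.6 and 36.2 points in the authors' deposited table. Subtraction put R-2HG at -2.29 and -0.73 points relative to IDH1wt at these Neurl1a windows. Dtx1, a ubiquitin ligase that acts on Notch signalling, had a single window, at -2074 bp, with 27.9 points for R-2HG minus IDH1mut in the authors' deposited table.

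Among nuclear factors, Rbpj had 30.8 points for IDH1mut minus IDH1wt in the authors' deposited table, but its 1 window lay at -85268 bp. Nrarp, a target that limits Notch signalling, had -26.0 points for R-2HG minus IDH1mut in the authors' deposited table, in 1 window at -12528 bp. Nrarp was the 1 target listed of 13, and Hes1, Hes5, Hey1, Hey2 and Heyl were among those with no window in the tables analysed here. Only 1.40% to 3.14% of RefSeq protein-coding genes were listed per comparison, so nothing is read from the absence of these targets. Of the 7 listed pathway genes Notch3 was the one with a promoter window.

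**Figure D4:**
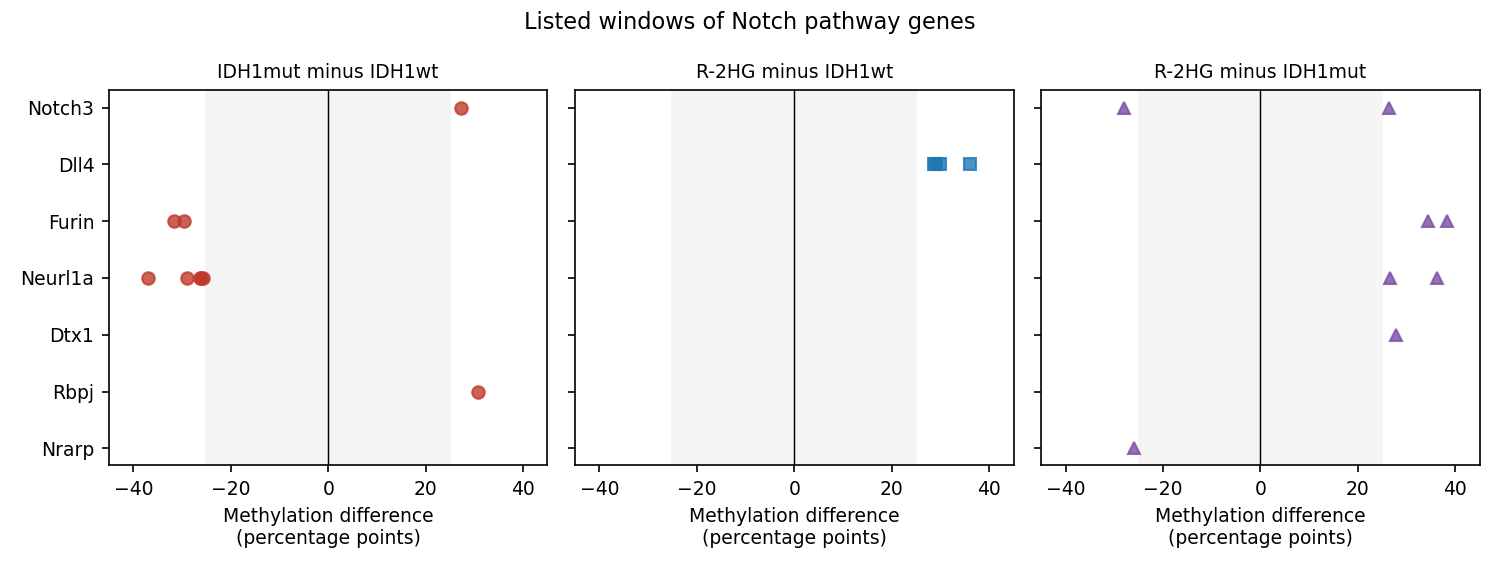
Methylation difference in percentage points (x axis) of every listed window of the 7 Notch pathway genes (y axis) in the 3 comparisons; each point is 1 window, and the shaded band marks differences under 25 points, which are not listed. For IDH1mut minus IDH1wt Notch3 and Rbpj are right of the band and Furin and Neurl1a left of it, and Dll4 alone appears for R-2HG minus IDH1wt.

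The genes with the most similar pattern were ranked by the distance between their mean differences in the 3 comparisons, with 0 where unlisted, over 680 genes with at least 2 listed windows. Closest to Dll4 were Gm16063 and Fah, with mean differences of 31.0 and 31.1 points for R-2HG minus IDH1wt, against 30.9 for Dll4, and no other listing. They are on chromosomes 5 and 7. The same ranking gave Pip5kl1, Zfa-ps and Gse1 for Notch3, with distances of 0.81 to 0.82 points, but it fails to capture Notch3, because its opposite windows average to -0.81 points for R-2HG minus IDH1mut. A ranking chosen after the values were seen used the Notch3 start site window alone, over the windows of 154 other genes listed in both comparisons with IDH1mut. Closest were windows nearest to Tdrd3, Larp4b and Birc6, with differences of 27.7, 28.0 and 26.9 points for IDH1mut minus IDH1wt in the authors' deposited table. Their differences for R-2HG minus IDH1mut in the authors' deposited table were -27.7, -28.2 and -28.9 points. The Birc6 window lay at -385 bp of its start site, and those of Tdrd3 and Larp4b lay 151113 and 90102 bp downstream.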

How the data were processed

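RRBS libraries were made from DNA cut with MspI, size-selected and bisulfite converted, each sequenced on its own lane, per the labels' protocols. Per the submitters' processing notes, the tools were Trim Galore, BSMAP and methylKit 0.9.1, and the build mm9. The coverage filter and the test used are not stated there or in the labels. The authors deposited 3 tables of windows of 500 bp, starting 250 bp apart. Each deposited row holds a methylation difference, a signed score in percentage points, with the authors' p-value and q-value and the distance to the nearest start site. The smallest absolute difference was 25.0 and the largest q 0.00995, so only windows past these limits are listed.

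Values were computed with Python 3.11.15 and pandas 2.3.3. Repeated rows of a window were counted once. Read depth is unknown and there is no value per library, so no SD, interval, own test or run without 1 library is given, and it is unknown whether the authors' p-values cover the spread between libraries. The sign order came from the rule that 3 differences between 3 groups add up, a step tested on simulated data, where 4 of 4 orders were recovered. Where a window was in exactly 2 tables, subtracting its values gave the remaining one. Distances run to the nearer window edge. Named genes were the members, all listed genes of the Notch pathway and marker lists, and the 3 genes most like each member, of which 1 is not reported here. Members and lists were chosen with earlier results of these data known.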

Additional observations from a re-analysis of the deposited data

How the results depend on the processing

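The values are the authors' own, so only counts could be recomputed. With at least 30 points, Notch3 had 0 windows left in each of its comparisons, Dll4 had 1 of 4, and 2 pathway genes were left for R-2HG minus IDH1mut. With start sites within 10000 bp, Notch3 had 1 window for R-2HG minus IDH1mut, and 1 pathway gene was left for IDH1mut minus IDH1wt and 2 for R-2HG minus IDH1mut. With promoter windows only, Dll4 had 0 windows and Notch3 had 1 in each of its comparisons. The pathway then had 1 gene listed for IDH1mut minus IDH1wt, 1 for R-2HG minus IDH1mut and 0 for R-2HG minus IDH1wt. These drops follow from the stricter rules themselves. Counting every deposited row or requiring q below 0.001 left the 9 counts within 1.5 times, as did other joining gaps (0 and 5000 bp, with 2 Notch3 clusters and 1 Dll4 cluster) and an overlap of 250 bp in place of identity. No paired analysis was possible because the tables hold no value per library.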

Other observations

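Windows near marker genes of cell types that use Dll4 or Notch3 were also listed. They are methylation values and say nothing of how many such cells were sorted. Over all RefSeq protein-coding genes, the share listed was 3.14% for IDH1mut minus IDH1wt, 1.64% for R-2HG minus IDH1wt and 1.40% for R-2HG minus IDH1mut, and lists of 10 genes are too short to be read against these shares. Of 10 endothelial markers 2, 0 and 1 were listed in these comparisons, in that order. Esam, an endothelial junction protein, had 32.9 and 26.2 points over its start site for IDH1mut minus IDH1wt and -38.6 and -32.2 points for R-2HG minus IDH1mut, and subtraction put R-2HG at -5.61 and -6.03 points relative to IDH1wt. These listed values are from the authors' deposited tables. Flt1, a receptor for vascular growth factors, had 25.7 and 31.6 points for IDH1mut minus IDH1wt in the authors' deposited table, from -48938 bp.

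Of 10 mural and stromal markers 1, 0 and 2 were listed, in the same order. Col1a1, a collagen gene, had 25.2 points for IDH1mut minus IDH1wt and 33.9 and 32.0 points in other windows for R-2HG minus IDH1mut in the authors' deposited table. Lepr, the leptin receptor of marrow stromal cells, had 27.6 points for R-2HG minus IDH1mut in the authors' deposited table, 491 bp downstream of its start. Of 10 T lymphoid markers 2, 1 and 1 were listed, all of them Gata3 or Zap70. Zap70, a T cell receptor kinase, had 29.0 points for R-2HG minus IDH1wt and 33.5 points for IDH1mut minus IDH1wt in the same 2 windows of the authors' deposited tables. Its R-2HG minus IDH1wt value is given after the reversal of sign. Gata3, a T cell transcription factor, had 33.3 to 48.8 points for IDH1mut minus IDH1wt and -29.6 to -40.3 points for R-2HG minus IDH1mut in the authors' deposited tables. Subtraction put R-2HG at 3.64, 6.71 and 14.8 points relative to IDH1wt in the 3 Gata3 windows, from the one closest to the start site to the farthest. Of 10 myeloid markers 0 were listed in any comparison, beside the shares of 1.40% to 3.14% over all genes.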
